A study of Mus musculus with 2 samples.

Results

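The cornified envelope genes of the mouse were followed in 2 spatial RNA libraries of calvaria, the bone that roofs the skull. The set was chosen by symbol: every gene named Lce or Sprr followed by a digit, with Lor, Flg, Flg2, Hrnr, Ivl, Rptn, Krtdap, Tgm1, Tgm3, Casp14 and Cdsn. It holds 47 of the 31053 genes in the files, of which 21 are Lce genes, 15 are Sprr genes and 11 are other envelope genes. The rule reads names and no measured value. The Blank section came from a mouse calvarial bone defect left without collagen/nHA material; the defect of the Col_nHA section had received it. Both were harvested at day 7, frozen and sectioned, and genotype, strain, sex and age are not given in the labels for either. With 1 section in each group nothing here was tested across animals, and p-values are absent for that reason. Values in brackets are exact 95% intervals for the counting of UMIs alone, and a ratio is Col_nHA over Blank, between these 2 libraries and not between treatments.

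The cornified envelope is the cross-linked protein shell that replaces the plasma membrane when an epidermal keratinocyte turns into a dead, flat corneocyte. Involucrin and related proteins lay down its scaffold, loricrin and the small proline-rich (Sprr) and late cornified envelope (Lce) proteins reinforce it, and transglutaminases join them. Filaggrin and its relatives fill and bundle the keratin inside, while Sprr genes are also known as genes that keratinocytes raise after injury and stress. In the annotation of GRCm38.p6, 42 of the 47 members lie on chromosome 3 between 92080271 and 93399442, within the epidermal differentiation complex. The 1319 kb between these positions is the span of the members and not of the complex. The other 5 are Tgm3 on chromosome 2, Krtdap on chromosome 7, Casp14 on chromosome 10, Tgm1 on chromosome 14 and Cdsn on chromosome 17.

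A spot is a small region of the section that can hold several cells of different types. Barcodes with at least 3667 unique molecular identifiers (UMIs) in Blank and 4690 in Col_nHA were taken as spots, which gave 2249 and 2471 spots with medians of 9733 and 13815 UMIs. The osteoblast genes fixed as a check of the labelled tissue held 0.0992% of UMIs in Blank and 0.0590% in Col_nHA, and the basal keratinocyte genes 0.108% and 0.0866%, so both sections hold bone and epidermal RNA. Spots with at least 1% of their UMIs in Krt5 and Krt14, the basal keratin pair, are called rich in Krt5 and Krt14 here, and numbered 53 in Blank and 62 in Col_nHA. Images and spot positions were not used. Levels are CPM, the counts of a gene scaled to a common UMI total in each section. Since the labels describe a 3′ tag kit, a CPM value counts transcripts and was not divided by length.

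To show what the gene starts of the complex look like beside the values that follow, the 250 bases before the annotated start of 6 members are printed here from RefSeq on GRCm38.p6. Lor and Lce1m are members that were far lower in Col_nHA, and Rptn, Sprr1b, Sprr2d and Sprr2a3 are members that were higher. Capitals mark TGANTCA, a broad form of an AP-1 site in which N is any base, and TATAAA, the letters of a TATA box. Each was searched on both strands, and the 2 motifs share no match here. The TGANTCA matches printed read TGAGTCA in Lor and Sprr2d, TGAATCA in Sprr1b and TGATTCA in Rptn. The windows are chr3:92083143-92083392 on the minus strand for Lor, chr3:93019062-93019311 on the minus strand for Lce1m and chr3:93393449-93393698 on the plus strand for Rptn. Those of the Sprr genes are chr3:92438780-92439029 on the minus strand for Sprr1b, chr3:92338890-92339139 on the plus strand for Sprr2d and chr3:92285054-92285303 on the plus strand for Sprr2a3.
Lor: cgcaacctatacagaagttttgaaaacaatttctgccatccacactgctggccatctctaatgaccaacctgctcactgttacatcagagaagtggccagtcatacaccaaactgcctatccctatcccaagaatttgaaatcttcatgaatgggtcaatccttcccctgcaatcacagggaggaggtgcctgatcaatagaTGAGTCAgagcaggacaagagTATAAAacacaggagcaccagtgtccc
Lce1m: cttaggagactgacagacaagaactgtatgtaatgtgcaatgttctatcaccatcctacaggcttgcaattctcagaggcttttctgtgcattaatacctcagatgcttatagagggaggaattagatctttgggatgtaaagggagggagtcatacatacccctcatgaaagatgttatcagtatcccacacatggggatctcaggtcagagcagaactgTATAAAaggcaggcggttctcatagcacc
Rptn: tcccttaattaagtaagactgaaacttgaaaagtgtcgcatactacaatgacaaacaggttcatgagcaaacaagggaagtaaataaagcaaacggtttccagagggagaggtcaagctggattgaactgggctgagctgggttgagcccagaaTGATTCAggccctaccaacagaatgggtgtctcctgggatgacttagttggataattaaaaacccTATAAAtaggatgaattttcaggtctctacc
Sprr1b: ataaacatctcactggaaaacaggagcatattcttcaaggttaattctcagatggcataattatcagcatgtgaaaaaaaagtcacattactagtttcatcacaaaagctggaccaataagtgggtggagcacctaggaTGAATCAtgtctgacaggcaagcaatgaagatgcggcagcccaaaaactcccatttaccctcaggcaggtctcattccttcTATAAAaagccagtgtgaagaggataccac
Sprr2d: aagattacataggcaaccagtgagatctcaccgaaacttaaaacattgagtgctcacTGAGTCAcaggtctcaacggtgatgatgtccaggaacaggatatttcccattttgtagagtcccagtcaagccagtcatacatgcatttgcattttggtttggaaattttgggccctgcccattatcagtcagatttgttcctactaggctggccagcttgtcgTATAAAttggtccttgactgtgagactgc
Sprr2a3: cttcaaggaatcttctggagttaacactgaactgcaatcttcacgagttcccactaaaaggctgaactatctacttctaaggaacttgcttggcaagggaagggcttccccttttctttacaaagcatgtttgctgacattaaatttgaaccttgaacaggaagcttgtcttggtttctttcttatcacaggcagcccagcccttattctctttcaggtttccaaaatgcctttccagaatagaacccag

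A window was found for 45 of the 47 members, not for Lce1f and Sprr2j-ps. TGANTCA stood in 6.75% of the 32851 windows of all genes, in 0 of 20 Lce windows, in 9 of 14 Sprr windows and in 6 of the 11 windows of the other envelope genes. TATAAA stood in 12.4% of all windows, in 4 of 20 Lce windows, in 10 of 14 Sprr windows and in 7 of the 11 others. CACCC, the core letters of a KLF site, stood in 52.0% of all windows, 7 of 20 Lce, 5 of 14 Sprr and 8 of 11 other windows. Of the 15 members with TGANTCA, 9 had a higher and 6 a lower CPM in Col_nHA. Of the 30 without it, 9 were higher, 19 lower and 2 at 0 in both sections, and 20 of these 30 are Lce genes. Without the Lce genes, 4 were higher and 4 lower. All these counts take any difference in CPM, however few the UMIs. Lor and Flg are among the lower members with TGANTCA, Sprr2d and Rptn among the higher ones, and Sprr2a3 has neither TGANTCA nor TATAAA in its window. The windows of Sprr2a1 and Sprr2a2 are identical, and that of Sprr2a3 matches them at 79.9% of positions. Sprr2a3 is annotated from 92285304 to 92289264, a longer stretch than that of Sprr2d, from 92339140 to 92340873. Whether transcripts begin at the annotated starts was not tested. A match is a run of letters and not a measured site.

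The envelope transcripts of the Col_nHA section were fewer and differently composed. The 47 genes held 26998 UMIs in Blank and 8834 in Col_nHA, or 879 and 220 CPM, which is 4.0-fold lower (3.91 to 4.1). The Lce genes went from 273.6 to 32.3 CPM, 8.48-fold lower (8.0 to 9.0), and the other envelope genes from 588 to 129 CPM, 4.56-fold lower (4.42 to 4.70). The Sprr genes went the other way, from 17.3 CPM (15.9 to 18.9) to 58.4 CPM (56.0 to 60.8), a ratio of 3.37 (3.06 to 3.71). In a bulk sum of this kind fewer cells of a type and less RNA per cell cannot be told apart.

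**Figure D1:**
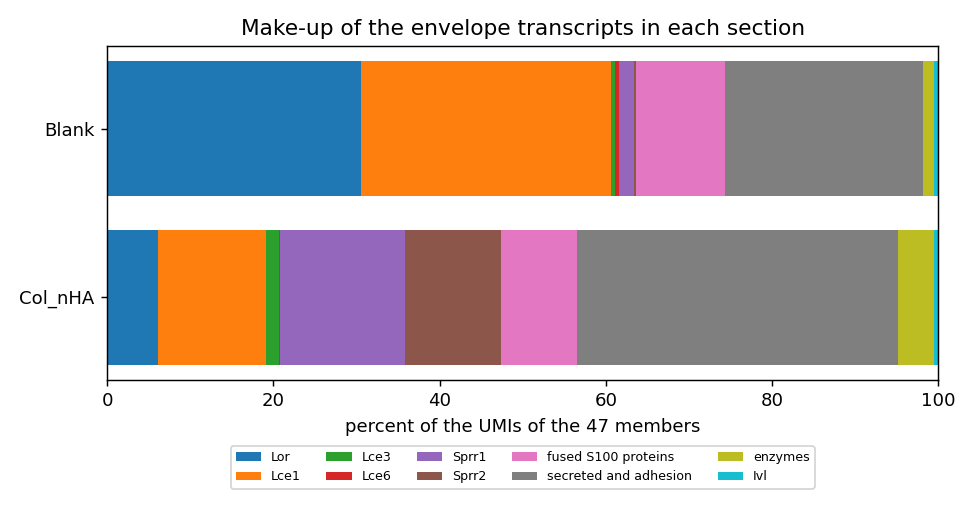
Percent of the UMIs of the 47 members (horizontal axis) held by loricrin, the Lce, Sprr and fused S100 subfamilies, the secreted and adhesion genes Krtdap and Cdsn, the enzymes and Ivl, in 1 section per group. Sprr genes held 1.97% in Blank and 26.6% in Col_nHA, while Lor held 30.5% and 6.11%.

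As shares of the envelope transcripts, which need no section total, Sprr genes held 1.97% (1.81 to 2.14) in Blank and 26.6% (25.6 to 27.5) in Col_nHA. Lce genes held 31.1% and 14.7%. At a minimum of 10 CPM in one or both sections, 19 members were counted, and 15 of them were at least 2-fold lower in Col_nHA, where 3.4% of the 9855 genes counted were. Another 3 members, Sprr1b, Sprr2a3 and Rptn, were at least 2-fold higher, against 1.83% of all genes. Of the 19, only Lor and Krtdap reached the minimum in both sections. All the others passed only through their higher section and so had to differ, though not by 2-fold, and Sprr1a stayed under 2-fold. These counts therefore describe the 19 and not the set, and counts at other minimums have the same limit for such members. At a minimum of 1 CPM, 33 members were counted, with 23 lower (8.02% of 14409 genes) and 7 higher (2.83%). Of all 47, 26 had a lower CPM in Col_nHA, 19 a higher one and 2, Sprr3 and Sprr4, had no UMI in either section. This count takes any difference, also that of Sprr2b with 0 and 2 UMIs, and has no share of all genes beside it. The median log2 ratio over the 9855 genes was 0.02.

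**Figure D2:**
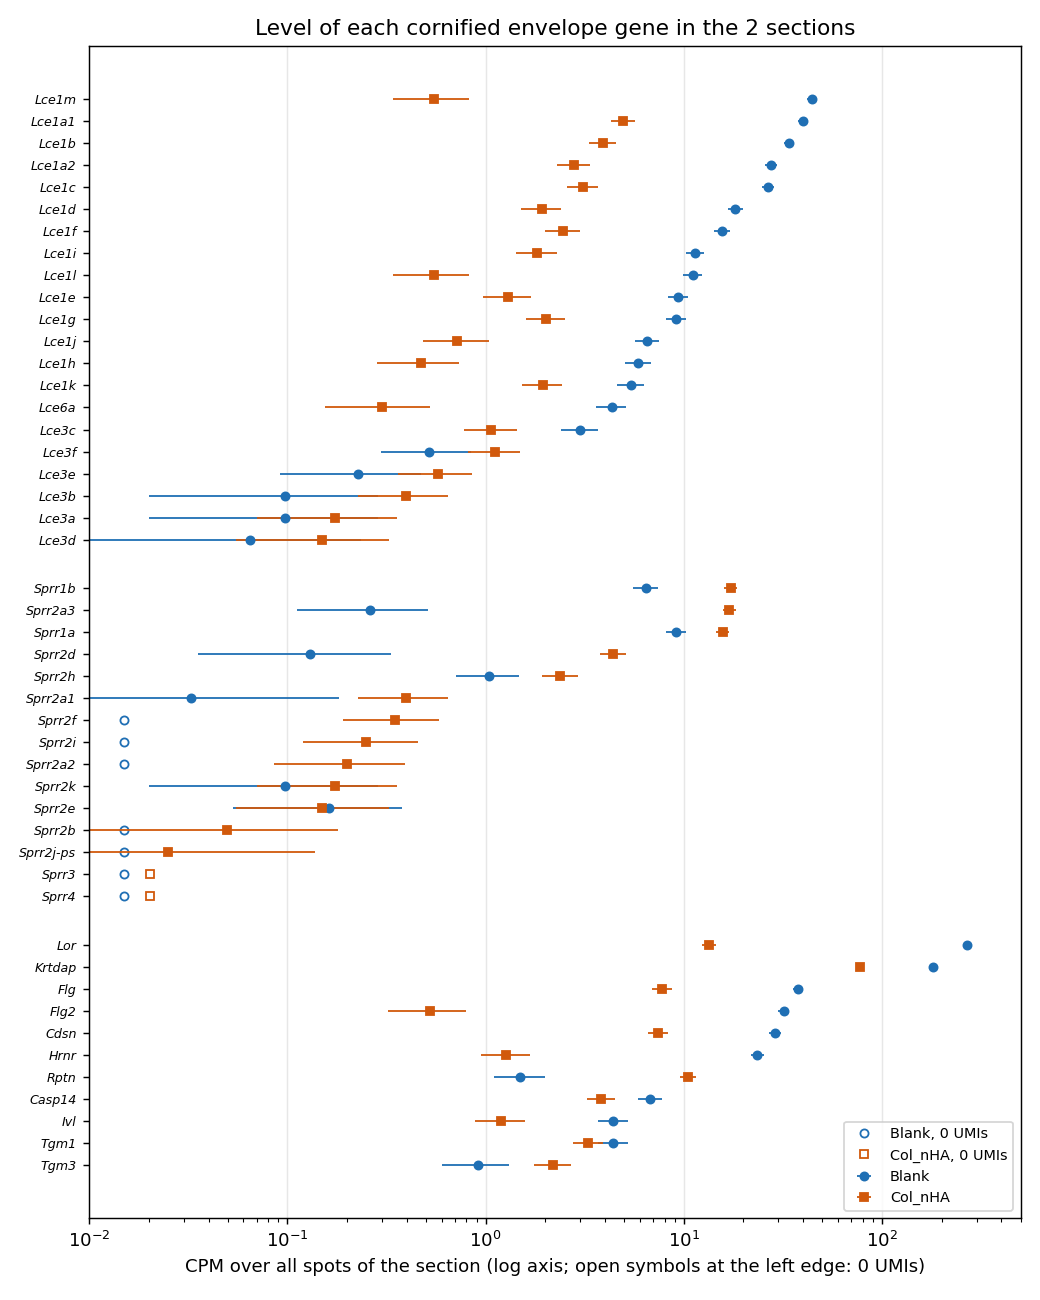
CPM of each of the 47 members over all spots (log axis), with exact 95% counting intervals that run off the left edge for the scarcest genes; circles are the Blank section, squares the Col_nHA section, and open symbols at the left edge mark 0 UMIs. In the Lce block every Lce1 gene lies lower in Col_nHA, and in the Sprr block 12 of 15 genes lie higher, some on only a few UMIs.

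The Lce1 genes encode small late envelope proteins that are laid down in the last steps of cornification. All 14 had a lower CPM in Col_nHA, and the group went from 8145 to 1145 UMIs, 9.31-fold lower (8.75 to 9.92). Lce1m stood furthest from 1, with 1359 UMIs (44.3 CPM) in Blank and 22 UMIs (0.547 CPM) in Col_nHA, 80.9-fold lower (53.2 to 129). Lce1m was the most abundant Lce gene in Blank, at 16.7% of Lce1 UMIs, and held 1.92% of them in Col_nHA.

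Most of the other Lce1 genes moved by similar factors. Lce1a1 held 1226 UMIs (39.9 CPM) in Blank and 199 (4.95 CPM) in Col_nHA, 8.07-fold lower, and was the most abundant Lce gene in Col_nHA. Lce1b went from 34.0 to 3.91 CPM (8.70-fold lower), Lce1a2 from 27.6 to 2.79 CPM (9.92-fold), and Lce1c from 26.7 to 3.11 CPM (8.58-fold). These intervals overlap, so the 4 genes cannot be ranked by their change. Lce1d went from 18.2 to 1.92 CPM, 9.52-fold lower, and Lce1f from 15.6 to 2.46 CPM, 6.35-fold lower. Lce1i went from 11.4 to 1.82 CPM, 6.30-fold lower, and Lce1l from 11.1 to 0.547 CPM, 20.3-fold lower. Below 10 CPM, Lce1e, Lce1g, Lce1h and Lce1j held 181 to 288 UMIs in Blank and 19 to 81 in Col_nHA. Lce1k differed least, with 166 UMIs in Blank and 78 in Col_nHA, 2.79-fold lower (2.12 to 3.70), and its share of Lce1 UMIs went from 2.04% to 6.81%. Of the 78 Lce1k UMIs in Col_nHA, 45 lay in 1 spot. Lce1 copies resemble each other in sequence, so reads may be split or lost between them and single-gene values within the family are uncertain.

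The Lce3 genes did not share the direction of Lce1. Their human counterparts are known to be raised where the skin barrier is injured. Together they held 123 UMIs in Blank and 140 in Col_nHA, a ratio of 0.869 (0.677 to 1.12) whose interval includes 1, and their share of Lce UMIs went from 1.46% to 10.8%. Within the group, Lce3c went from 92 to 43 UMIs, 2.8-fold lower, while Lce3f went from 16 to 45 UMIs, a ratio of 2.15 (1.19 to 4.07). Lce3e had 7 and 23 UMIs and Lce3b 3 and 16, with ratios of 2.51 (1.04 to 6.92) and 4.07 (1.17 to 21.8). Lce3a with 3 and 7 UMIs and Lce3d with 2 and 6 UMIs were too scarce to separate the sections. Lce6a, the single Lce6 gene, went from 133 to 12 UMIs, 14.5-fold lower (8.04 to 28.8).

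Much of what Lce signal the Col_nHA section held lay in a single spot. That spot had 527 of the 1297 Lce UMIs, or 40.6%, and the next spots had 131 and 55. In Blank the leading spot had 741 of 8401, or 8.82%, followed by 305 and 249. It took 2 spots in Col_nHA and 33 in Blank to hold 50% of the Lce UMIs. The leading Col_nHA spot also had 189 UMIs of Lor, 76 of Flg, 34 of Casp14 and 39 of Rptn, but 23 of Sprr. The counting intervals treat UMIs as independent and do not cover this unevenness.

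**Figure D3:**
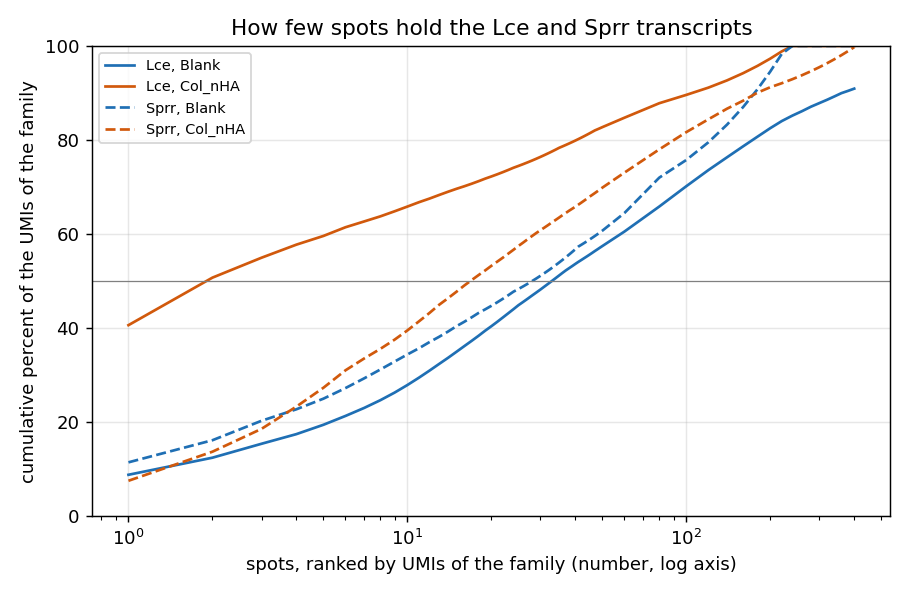
Cumulative percent of the UMIs of a family (vertical axis) over spots ranked by their UMIs of that family (number of spots, log axis), for Lce (solid) and Sprr (dashed) in the Blank and Col_nHA sections; the grey line marks 50%. The Col_nHA Lce curve starts at 40.6% with the leading spot, the other 3 curves start between 7.54% and 11.5%.

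With the leading Lce spot of each section left out, Lce was 13.0-fold lower in Col_nHA (12.1 to 14.0) instead of 8.48-fold. Lce1a1 was then 14.0-fold lower, Lce1k 6.11-fold lower (4.17 to 9.19), Lce1m 137-fold lower (78.2 to 266) and Lce6a 41.2-fold lower, and the 14 Lce1 genes ranged from 6.11-fold to 137-fold lower. The Sprr ratio hardly moved, at 3.34 (3.04 to 3.68). It took 28 spots in Blank and 17 in Col_nHA to hold 50% of the Sprr UMIs, fewer than for Lce in Blank and more than for Lce in Col_nHA.

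Loricrin, the main protein of the mature envelope, was the most abundant member in Blank. Lor had 8237 UMIs (268 CPM) in Blank and 540 (13.4 CPM) in Col_nHA, with at least 1 UMI in 45.4% of Blank and 6.43% of Col_nHA spots. Of the 540, 189 lay in the leading Lce spot, without which Lor was 29.1-fold lower (26.2 to 32.5) in place of 19.97-fold. Ivl, the gene of the early scaffold protein involucrin, went from 135 to 48 UMIs, 3.68-fold lower (2.63 to 5.23).

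The 4 fused S100 genes, which encode long repeat proteins with an S100 calcium-binding head, split. Flg2 went from 982 UMIs (32.0 CPM) to 21 (0.522 CPM), 61.2-fold lower (39.8 to 99.4), and 101-fold lower (57.6 to 196) without the leading Lce spots. Hrnr, the gene of hornerin, went from 723 (23.5 CPM) to 51 UMIs (1.27 CPM), 18.6-fold lower (14.0 to 25.2). Flg, the gene of filaggrin, went from 1153 (37.5 CPM) to 313 UMIs (7.79 CPM), 4.82-fold lower (4.25 to 5.48). These intervals do not overlap, so the 3 genes of this type that were lower differed from each other by more than counting error.

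Rptn, the gene of repetin, moved in the opposite direction to its 3 relatives. It had 46 UMIs (1.5 CPM) in Blank and 422 UMIs (10.5 CPM) in Col_nHA, a ratio of 7.01 (5.16 to 9.72), and 6.36 (4.68 to 8.83) without the leading Lce spots. Its share of the fused S100 UMIs went from 1.58% to 52.3%, while that of Flg was 39.7% and 38.8%. Rptn is the last of the members along chromosome 3, and the member before it is Hrnr, the gene that was 18.6-fold lower.

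Krtdap encodes a secreted peptide linked to keratinocyte differentiation, and Cdsn encodes corneodesmosin, which holds corneocytes together. Krtdap had 5531 UMIs (180 CPM) in Blank and 3124 (77.7 CPM) in Col_nHA, 2.32-fold lower (2.22 to 2.42). It thereby became the leading member in Col_nHA, at 35.4% of all member UMIs against 20.5% in Blank. Cdsn went from 887 (28.9 CPM) to 298 UMIs (7.41 CPM), 3.90-fold lower (3.41 to 4.46).

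The 3 enzymes differed little as a group, with 371 UMIs in Blank and 374 in Col_nHA, a ratio of 0.770 (0.665 to 0.891). Casp14, a protease of the dying keratinocyte that takes part in filaggrin breakdown, had 208 and 154 UMIs, a ratio of 0.565 (0.456 to 0.700). Without the leading Lce spots, the 154 became 120 and Casp14 was 2.24-fold lower. Tgm1, the membrane-bound transglutaminase of the envelope, had 135 and 132 UMIs, a ratio of 0.747 (0.583 to 0.956). Tgm1 was the least confined member of the 3, with 30.4% of its Blank and 46.97% of its Col_nHA UMIs in spots under 0.1% Krt5 and Krt14. Tgm3, a soluble transglutaminase also known from hair follicles, had 28 and 88 UMIs, a ratio of 2.40 (1.55 to 3.82).

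Among the Sprr genes, Sprr1 and Sprr2 differed in how far they moved. The Sprr1 genes encode short bridging proteins. Sprr1b went from 197 UMIs (6.42 CPM) to 695 (17.3 CPM), a ratio of 2.69 (2.30 to 3.17). Sprr1a went from 282 UMIs (9.18 CPM) to 632 (15.7 CPM), a ratio of 1.71 (1.49 to 1.98). Both were higher in Col_nHA, Sprr1b by more. Sprr1a had the higher level of the pair in Blank, while in Col_nHA their intervals overlap.

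Sprr2 genes were close to absent in Blank. The 11 of them had 53 UMIs there and 1019 in Col_nHA, a ratio of 14.7 (11.1 to 19.7). Sprr2a3 alone went from 8 UMIs (0.261 CPM) to 682 (17.0 CPM), a ratio of 65.1 (32.9 to 151), and held 1.5% of Sprr UMIs in Blank and 29.1% in Col_nHA. Sprr2d went from 4 to 177 UMIs, a ratio of 33.8 (13.0 to 125). Sprr2h, the leading Sprr2 gene in Blank, went from 32 to 96 UMIs, a ratio of 2.29 (1.52 to 3.53), so its share of Sprr2 went from 60.4% to 9.42%. The higher Sprr2 sum of Col_nHA was thus carried by Sprr2a3 and Sprr2d.

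The remaining Sprr2 genes were scarce. Sprr2a1 had 1 and 16 UMIs, a ratio of 12.2 with an interval from 1.90 to 512. Sprr2f had 0 and 14 UMIs, at least 3.56-fold higher against a floor of 3 counts in the section, Sprr2i had 0 and 10 (at least 2.55-fold) and Sprr2a2 had 0 and 8 (at least 2.04-fold). Their exact intervals, which do not use the floor, start at lower ratios of 2.53, 1.71 and 1.3. Sprr2e with 5 and 6 UMIs and Sprr2k with 3 and 7 did not separate the sections, and Sprr2b had 0 and 2 UMIs and Sprr2j-ps 0 and 1. Sprr3, known from inner epithelia such as the oesophagus, and Sprr4 had 0 UMIs in both sections. The exact intervals reach up to 0.120 CPM in Blank and 0.0918 CPM in Col_nHA. Sprr2a1, Sprr2a2 and Sprr2a3 are near-copies, so the split of reads among them is uncertain while their sum, 9 UMIs in Blank and 706 in Col_nHA, is less so.

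**Figure D4:**
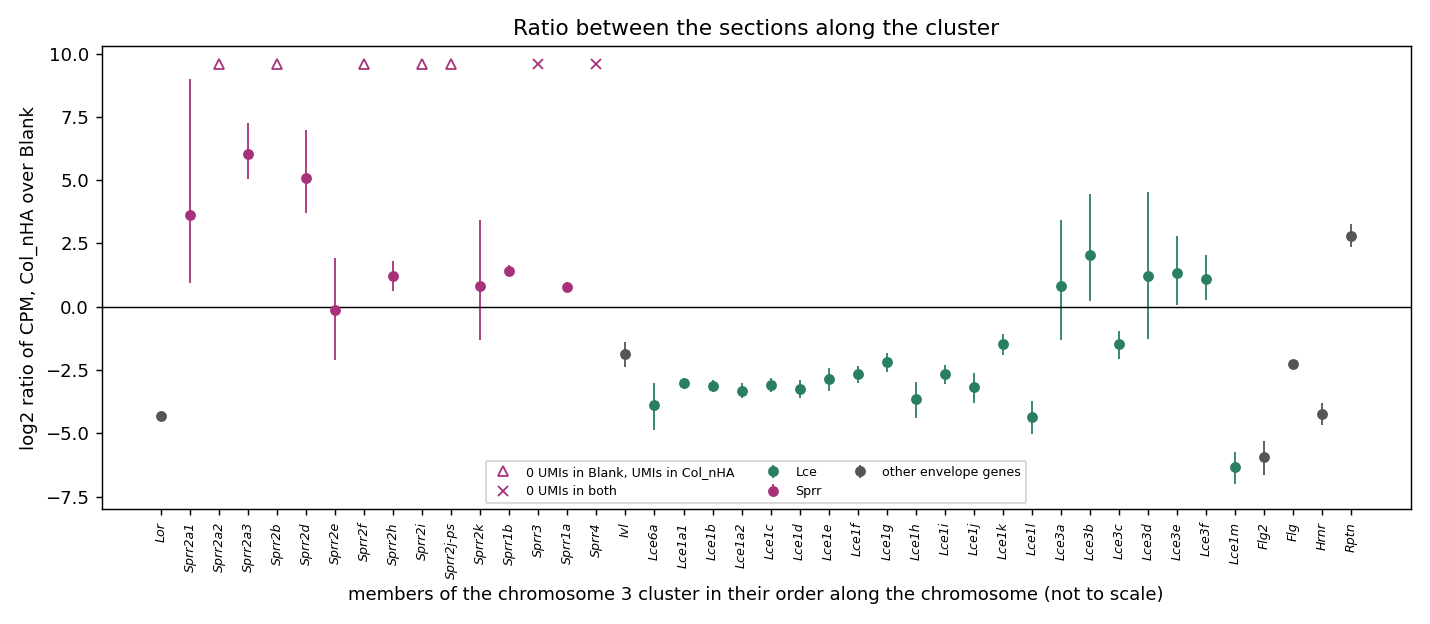
Log2 ratio of CPM, Col_nHA over Blank, of the 42 members on chromosome 3 in their order along the chromosome (not to scale), with exact 95% counting intervals; triangles mark genes with UMIs in Col_nHA and 0 in Blank, crosses genes with 0 in both. The Sprr block lies at or above 0 except Sprr2e, whose interval spans it, the Lce1 genes lie between −1.48 and −6.34, and Rptn at the end of the row lies at 2.81.

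Along the chromosome, the direction changed by gene family and not in 1 step. Lor at one end was lower in Col_nHA, the Sprr block beside it was higher, and Ivl and the Lce1 genes were lower again. The Lce3 genes, 4 of which had fewer than 10 UMIs in Blank, lie between Lce1l and Lce1m, both of which were lower. Flg2, Flg and Hrnr were lower and Rptn, the last of the row, was higher.

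The comparison was next restricted to the spots rich in Krt5 and Krt14, with 588189 UMIs in Blank and 1004702 in Col_nHA. These spots held 31.2% of the Lce and 44.0% of the Sprr UMIs of Blank, and 80.6% and 71.3% of those of Col_nHA. Spots under 0.1% Krt5 and Krt14 held 11.8% of the Lce UMIs of Blank and 10.6% of those of Col_nHA. Most Blank Lce UMIs thus lay in spots between these limits, which are left out here. Within the rich spots Lce went from 4454 to 1040 CPM, 4.28-fold lower, and Sprr from 398 to 1665 CPM, a ratio of 4.19 (3.65 to 4.82). Lor went from 4203 to 382 CPM, a ratio of 0.0909 (0.0815 to 0.101). Without the leading Lce spots Lce was 6.21-fold lower and Lor 17.9-fold lower in these spots. Rptn went from 17.0 to 294 CPM, a ratio of 17.3 (9.26 to 36.4), and Sprr2a3 from 5.10 to 538 CPM, a ratio of 106 (35.9 to 514). So the separation of Sprr and Rptn from Lce and Lor was also there within these spots. The fold was smaller for Lce and Lor and larger for Sprr and Rptn than over all spots. Since the rich spots hold a smaller part of the Lce UMIs in Blank than in Col_nHA, these folds do not compare whole epidermis.

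A few members had ratios nearer to 1 in the rich spots. Krtdap went from 3167 to 2225 CPM, 1.42-fold lower. Casp14 had 122 and 113 CPM, a ratio of 0.927 (0.684 to 1.26), Tgm1 56.1 and 49.8 CPM, a ratio of 0.887 (0.560 to 1.42), and Lce1k 95.2 and 72.7 CPM, a ratio of 0.763 (0.531 to 1.1). These 3 intervals include 1. For Lce1k and Casp14 this rested on the leading Lce spot of Col_nHA: without the leading spot of each section, Lce1k had 76.8 and 28.5 CPM, a ratio of 0.371 (0.223 to 0.610), and Casp14 120 and 81.5 CPM, a ratio of 0.677 (0.484 to 0.948). Tgm1 then had a ratio of 0.923 (0.577 to 1.5). At a minimum of 50 CPM in these spots, 32 members were counted, with 20 at least 2-fold lower (11.5% of the 4047 genes counted) and 7 at least 2-fold higher (6.57%). Members that pass this minimum only through their higher section had to differ here too.

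The sections also differed in the other keratins of their spots. Over all spots, those with at least 1% of UMIs in Krt1 and Krt10, keratins of differentiating layers, numbered 56 in Blank and 0 in Col_nHA, where the highest share of a spot was 0.763%. Spots with at least 1% in Krt6a, Krt6b and Krt16, keratins known from wounded epidermis, numbered 0 in Blank, where the highest was 0.966%, and 56 in Col_nHA. The 56 Krt6a, Krt6b and Krt16 spots of Col_nHA held 81.2% of its Lce, 69.9% of its Sprr, 72.6% of its Lor and 72.3% of its Rptn UMIs. In Col_nHA the Lce and Lor transcripts therefore lay mostly in the same class of spots as the Sprr transcripts. The families shared a class in Blank too. Its 56 Krt1 and Krt10 spots held 46.8% of its Lce, 49.4% of its Sprr, 46.4% of its Lor and 60.9% of its Rptn UMIs.

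Within the rich spots the families were unevenly shared. Sprr UMIs outnumbered Lce UMIs in 51 of 62 rich Col_nHA spots and in 4 of 53 rich Blank spots. A Lor UMI was present in 53 of 53 rich Blank spots and 35 of 62 rich Col_nHA spots, and a Sprr UMI in 41 of 53 and 61 of 62. The 10 Col_nHA spots with the most Sprr held 39.5% of the Sprr UMIs of the section but 7.60% of its Lce1 and 3.52% of its Lor, and 8 of the 10 had no Lor UMI. These 10 were ranked by Sprr UMIs and were deep, with 19334 to 39298 UMIs each against a median of 14045 in rich Col_nHA spots. The leading one had 177 UMIs of Sprr with 1 of Lce1 and 0 of Lor, and beside them 938 of Krt6a. In Blank the leading Sprr spot had 61 Sprr UMIs with 61 of Lce1, 102 of Lor and 77 of Krt16.

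**Figure D5:**
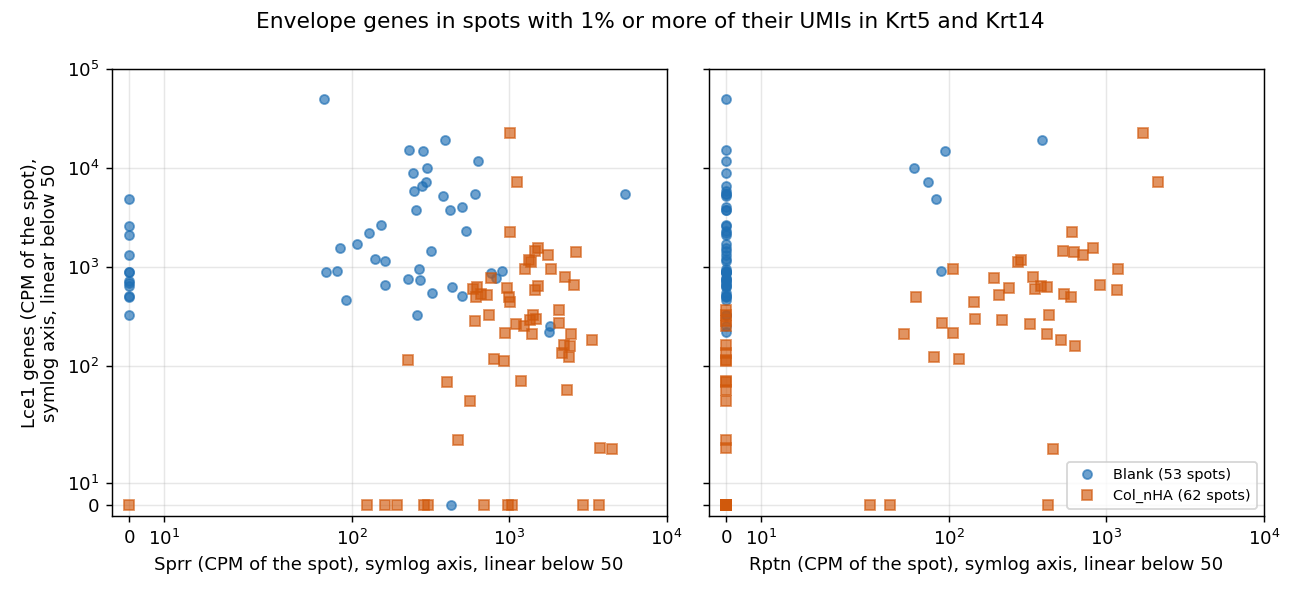
Lce1 CPM (vertical axis) against Sprr CPM (left panel) and Rptn CPM (right panel) in each spot with at least 1% of UMIs in Krt5 and Krt14, on axes that are logarithmic above 50 CPM and linear below; circles are 53 Blank spots and squares 62 Col_nHA spots. Most Col_nHA spots lie lower and further right in the left panel, and within Col_nHA Lce1 has a Spearman rho of 0.72 with Rptn and 0.22 with Sprr.

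Across the rich spots, Lce1 and Lor levels went together in both sections, with a Spearman rho of 0.79 over 53 Blank and 0.78 over 62 Col_nHA spots. Sprr went with neither: its rho with Lce1 was 0.11 and 0.22, and with Lor 0.16 and 0.09. It went more with Krt6a, Krt6b and Krt16, at 0.58 in Blank and 0.73 in Col_nHA, but not with these alone. The rho of Sprr was 0.42 and 0.63 with Krtdap, and 0.34 and 0.44 with Krt1 and Krt10. With Krt14 it was 0.24 and 0.66, and with Krt5 0.13 and 0.15. In Col_nHA the rho of Sprr2 was 0.75 with Krt14 and 0.64 with Krt6a, Krt6b and Krt16, that of Sprr1 0.42 and 0.64. Rptn, which shared its direction between the sections with Sprr, followed Lce1 across the Col_nHA spots at 0.72 and Sprr at 0.38. Its Blank values rest on 6 spots with a UMI. Krtdap followed Krt1 and Krt10 at 0.86 in Blank and 0.81 in Col_nHA, and Krt6a, Krt6b and Krt16 at 0.29 and 0.85. Lce1 and Krt5 had a rho of 0.13 in Blank and −0.54 in Col_nHA. The UMI total of a spot had a rho of 0.27 with Sprr, −0.37 with Lce1 and −0.34 with Lor in Col_nHA. In Blank these values were −0.20, −0.10 and −0.16. The part of depth in the other rho values was not tested. Spots of a section share 1 library, so these values are descriptions.

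The genes most like the Lce sum across rich spots, by Pearson r of log levels among 3577 genes in Blank and 3217 in Col_nHA, were Kprp (0.79), 2310050C09Rik, Gm94, Krt10, Crct1, Cpa4, Sbsn and Calm4 in Blank. In Col_nHA they were Asprv1 (0.80), Calm4, Cnfn, 2310050C09Rik, Chil1, Il1f5, Fam25c and Kprp. For the Sprr sum they were Krt16 (0.66), Krt6a, Dmkn, Aqp3, Snrpa1, Lgalsl, Sfn and Smu1 in Blank. In Col_nHA they were Krt6b (0.80), Fabp5, S100a8, Calm4, Krt6a, Lgals7, 2310046K23Rik and Dmkn. Krt6a and Dmkn stand in both Sprr lists, Kprp, Calm4 and 2310050C09Rik in both Lce lists, and Calm4 in the Lce and Sprr lists of Col_nHA.

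Other genes of the pathway, over all spots, were mostly on the side of Lce. Of 13 further envelope and differentiation genes counted, 9 were at least 2-fold lower and 0 higher, with a median log2 ratio of −1.53. In the rich spots the 16 genes of this list held 1.66% of UMIs in Blank and 1.60% in Col_nHA. Kprp, a proline-rich keratinocyte protein, was 7.49-fold lower and Crct1, another gene of the complex, 5.11-fold lower. Dmkn, a secreted partner of Krtdap in differentiating layers, went from 192 to 50.9 CPM, and Lgals7, the gene of a keratinocyte galectin, from 407 to 309 CPM, 1.32-fold lower, but from 6634 to 9819 CPM in the rich spots. Of 5 desquamation and barrier lipid genes counted over all spots, 3 were lower and 0 higher at the 2-fold limit. They were led by Elovl4, an enzyme of very long fatty acids, at 6.49-fold and Asprv1, a filaggrin protease, at 4.53-fold. Within the rich spots the 12 genes of this list held 0.279% of UMIs in Blank and 0.188% in Col_nHA. There Elovl4 had 673 and 407 CPM and Asprv1 993 and 352 CPM. Klk7 (360 and 472 CPM) and Klk8 (187 and 257 CPM) were higher in the rich Col_nHA spots. Of 5 regulators counted over all spots, 3 were lower and 0 higher at the 2-fold limit. Gata3 was 3.92-fold and Klf4, a barrier transcription factor, 2.25-fold lower. Junb, an AP-1 subunit, had a ratio of 1.2 (1.14 to 1.25) and Nfe2l2 one of 1.04 (0.993 to 1.1). Below 10 CPM, Fosl1 was higher, with 37 and 227 UMIs, a ratio of 4.69 (3.30 to 6.83). Grhl1, Grhl3, Ovol1 and Zfp750 were lower, with ratios from 0.408 to 0.694. Within the rich spots the 10 regulators held 0.117% of UMIs in Blank and 0.106% in Col_nHA. There Klf4 had 298 and 221 CPM and Gata3 219 and 92.6 CPM.

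Markers of other epidermal parts and of other cells differed in direction and size. All 3 suprabasal keratin genes counted were lower and all 4 wound keratins higher, at the 2-fold limit. Of the 7 basal keratinocyte genes, Krt15, also a follicle keratin, was 42.3-fold and Col17a1 2.73-fold lower. Another 3, Krt5, Trp63 and Itgb4, were lower by less than 2-fold with intervals under 1. Krt14 and Itga6 were higher, with ratios of 1.13 (1.11 to 1.16) and 1.14 (1.06 to 1.22). All 5 sebaceous genes counted were lower, with a median log2 ratio of −3.03, and Krt79, the hair follicle gene counted, was 9.65-fold lower. Over all spots the 4 adipocyte genes counted had a median log2 ratio of −3.25, with 3 lower at the 2-fold limit. Which cells carried the sebaceous list was not tested. In the rich spots, the 6 genes of the neutrophil list held 0.0148% of UMIs in Blank and 0.259% in Col_nHA, with per-spot ranges of 0% to 0.474% and 0% to 0.860%. That difference lay in S100a8 (51 and 1868 CPM) and S100a9 (69.7 and 716 CPM), which keratinocytes are also known to express after injury. The other 4 did not follow: Ngp had 25.5 and 0 CPM, Mmp8 1.7 and 1.99 CPM, Retnlg 0 and 2.99 CPM, and Ly6g was at 0 in both. Fibroblast genes held 2.99% and 1.51%, and macrophage genes 0.165% and 0.264%. Osteoblast genes held 0.00374% and 0.00547% there, skeletal muscle genes 0.214% and 0.0390%, adipocyte genes 0.0422% and 0.00458%, and nerve genes 0.00391% and 0.00309%. The part of these cells in the ratios of the envelope genes was not tested.

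Envelope transcripts were also counted away from the rich spots, and more so in Blank. With every spot thinned to 2000 UMIs, a Lce UMI was found in 81.1% of rich and 8.52% of poor Blank spots (under 0.1% Krt5 and Krt14), and in 45.2% and 1.28% of those of Col_nHA. For Sprr these shares were 34.0% and 1.01% in Blank and 82.3% and 1.77% in Col_nHA. Without thinning, the poor spots with a Lce UMI made up 34.6% in Blank and 5.27% in Col_nHA, at median depths of 10885 and 14299 UMIs. The poor spots give the level met where the basal keratins are nearly absent, and their share was higher in Blank for Lce. Among barcodes under the spot limit, the Lce level was 676 CPM for the Blank file against 9.12 for the other, so 25.1% of all Lce UMIs of the Blank file and 3.35% of those of the Col_nHA file lay outside the spots. For Sprr these shares were 25.3% and 5.21%, and there the Sprr level was also higher in Blank, at 43.2 CPM against 26.1, unlike in the spots.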

How the data were processed

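RNA of 2 frozen sections was counted on a spatially barcoded array. The deposited values are raw UMI counts, one per gene and array barcode, and no tissue filter had been applied. Per the submitters' processing notes the authors used Space Ranger, its version not given in the sources used here, with build mm10. Cell Ranger 4 stands in the header of each matrix. The labels' extraction text describes a droplet single-cell kit, while the sample descriptions and barcodes are spatial. The genes and lists were chosen with earlier results of these data known.

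Spots were barcodes over an Otsu threshold on log10 UMIs, set per section; 265 Blank and 214 Col_nHA barcodes lay within 10% of it. UMIs were summed per section (30705849 and 40202268) and scaled to CPM. Intervals are Poisson (CPM), conditional binomial (ratios) and Clopper-Pearson (shares). A count of 0 was set at a floor of 3. Members that reached 10 CPM in either section were named with levels, others by UMIs. From each other list, the 2 most abundant and 2 with the largest ratio were eligible, with all keratins of the first 3 lists. The intervals and the 2-fold count were tested on simulated independent Poisson counts, the same assumption that the intervals make. That simulation held neither clumping of UMIs in spots nor differences between animals or sections, so it covers counting error alone. Software was Python 3.11.15, numpy 2.4.6, scipy 1.17.1, pandas 2.3.3, matplotlib 3.10.9 and, for TMM factors, R 4.3.3 with edgeR 4.0.16. Alternatives were other spot limits, scalings, minimums, thinning, rich spots alone, and leaving out the leading Lce spots, which was added after seeing the data.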

Additional observations from a re-analysis of the deposited data

Results flagged for a closer look

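The barcodes under the spot limit lie outside the spots on which the ratios rest. In them the Sprr sum was lower in Col_nHA, with 180 UMIs in Blank and 129 in Col_nHA, or 43.2 and 26.1 CPM, the opposite of its direction in the spots. Sprr1a had 103 and 43 UMIs there and Sprr2h 15 and 4. Against that, Sprr2a3 had 2 UMIs in Blank and 18 in Col_nHA, a ratio of 7.59 (1.82 to 67.5), and Sprr2d had 0 and 11, both above the level in Blank by more than counting error. The other Sprr2 genes higher in Col_nHA there, Sprr2e, Sprr2i and Sprr2j-ps, had at most 2 UMIs. The cause was not tested.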

How the results depend on the processing

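No paired analysis was possible because each group holds 1 section. No direction reversed under any alternative run for the 3 family sums or the 19 members named with levels. Scaling by TMM, by a total that leaves out mitochondrial, ribosomal protein and haemoglobin genes, or by Krt5 and Krt14 moved no family sum beyond its counting interval. The counts of members at least 2-fold lower and higher, 15 and 3, became 23 and 7 at a minimum of 1 CPM and 2 and 0 at 50 CPM. The log2 ratio of summed Lce, −3.08, was −3.44 over every barcode, −2.76 with a UMI limit 1.5 times as high, −3.86 as a mean of per-spot CPM, −2.10 in rich spots and −3.70 without the leading Lce spots. That of Sprr, 1.75, was 1.43, 1.96, 1.04 and 2.07 under the first 4 of these. That of the other envelope genes, −2.19, was −2.46, −1.94, −2.85, −1.39 and −2.27 under all 5. The Sprr share of member UMIs was 2.77% for Blank in rich spots and 29.8% for Col_nHA without the leading Lce spots. The cause of these shifts was not tested. Rich spots at 0.5% or 2% of UMIs in Krt5 and Krt14 held 61.4% or 2.49% of Blank Lce UMIs and 84.5% or 55.6% of those of Col_nHA. Of 95 single-member values under 5 alternatives, 54 stayed within the counting interval and 41 left it. With 1 section per group, animal, section plane and treatment cannot be told apart.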
